A study of Mus musculus with 50 samples.

Results

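A set of 10 genes of T cells and natural killer (NK) cells, Cd3e, Cd3g, Cd4, Cd8a, Foxp3, Pdcd1, Gzmb, Prf1, Nkg7 and Ncr1, was chosen by name out of the 37701 genes of the expression table and followed through 50 mammary gland tumors. All 10 were found under these symbols, and all 10 had a mean of at least 0.5 RPKM (reads per kilobase of gene length, scaled to library size), the level above which 16733 genes were tested. The tumors came from female p53R270H/+WAPCre mice, in which the Cre recombinase, driven by the promoter of the milk protein gene Wap, switches on a mutant p53 allele in mammary epithelium. The immune cells of these tumors were therefore those of the host. From 8 weeks of age the mice were injected subcutaneously on alternate days, and 10 tumors were sequenced for each of 5 treatments: vehicle, insulin, the insulin analogues glargine and X10, and the growth factor IGF1. Tumors were taken at 1 cm3, 24 h after the last injection, and the study picked EMT-like tumors (with features of epithelial to mesenchymal transition) with a latency near the median of their group. The vehicle tumors are titled untreated in the sample labels. Tumors are named below as in the labels, by treatment and number, with Untreated for vehicle.

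Cd3e and Cd3g encode chains of the CD3 complex, which passes the signal of the T cell receptor into the cell. Cd4 and Cd8a encode the coreceptors of helper and cytotoxic T cells, Foxp3 the transcription factor of regulatory T cells, and Pdcd1 the inhibitory receptor PD-1 of activated T cells. Gzmb encodes the protease granzyme B and Prf1 the pore protein perforin, with which cytotoxic T cells and NK cells kill their targets. Nkg7 encodes a protein of cytotoxic granules, and Ncr1 the receptor NKp46 of NK cells and related innate lymphocytes. Cd4 is also transcribed by some dendritic cells and macrophages.

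The level of these genes differed far more between tumors than between treatments, as did that of the median tested gene. In log2(RPKM + 0.5), the SD over the 50 tumors was between 0.66 for Pdcd1 and 1.31 for Cd3g, where the median of the tested genes was 0.42. The order of these SDs among the genes is not one of spread in RPKM, because the added 0.5 shrinks genes of low RPKM more. The share of this variance that lay between the treatment means was between 1.96% (Gzmb) and 8.78% (Ncr1), and 9.29% in the median tested gene. Means of small groups also differ by chance, and these shares were not corrected for that. They are therefore not amounts explained by treatment. In bulk tumor RNA, fewer cells of a type and less RNA per cell cannot be told apart.

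Cd3e (chromosome 9 of GRCm38, 44998740 to 45009627, minus strand) was detected in every tumor. Its lowest, median and highest RPKM were 0.160, 2.33 and 7.92 with vehicle, 0.299, 2.31 and 24.5 with insulin, 0.174, 1.97 and 3.75 with glargine, 0.369, 1.52 and 19.1 with X10, and 0.425, 1.83 and 4.49 with IGF1. The groups overlapped, and the highest values belonged to few tumors: insulin_8 (24.5), X10_105 (19.1), insulin_9 (9.72) and Untreated_186 (7.92). Cd3g, the neighbouring gene (chromosome 9, 44969572 to 44980431, minus strand), had its highest values in the same 4 tumors, with 74.0, 60.5, 36.4 and 39.1 RPKM in that order. Cd8a (chromosome 6, 71373427 to 71379173, plus strand) was at 8.70 RPKM in insulin_8 and 6.38 in X10_105, against a median of 0.622 over all tumors. Foxp3 (X chromosome, 7573644 to 7595245, plus strand) reached 3.09 RPKM in insulin_9, with a median of 0.675. Untreated_161 stood at the other end, with the lowest Cd3e, Cd3g (0.388), Cd4 (1.23), Cd8a (0.039), Foxp3 (0.0050) and Nkg7 (0.137) of the 50 tumors. It was also the lowest in the summed level of the general leukocyte genes (623.9 RPKM, median of the 50 tumors 1375.6) and of the macrophage genes (298.3, median 1397.6).

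Cd4 (chromosome 6, 124864692 to 124888221, minus strand) followed the other T cell genes less closely. It was highest in insulin_8 (73.1 RPKM) and X10_105 (53.4), and next in glargine_69 (45.1), insulin_9 (43.9) and Untreated_187 (38.4). glargine_69 and Untreated_187 had 1.90 and 1.30 RPKM of Cd3e, below the median of 1.97. Untreated_197 had 36.4 RPKM of Cd4 with 0.404 of Cd3e.

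Among the genes of killing and of NK cells, Prf1 was highest in tumors other than the 4 highest in Cd3e, whereas Untreated_186, 1 of those 4, was also among the highest in Gzmb, Nkg7 and Ncr1. Prf1 (chromosome 10, 61297833 to 61304680, plus strand) had lowest, median and highest values of 0.136, 1.06 and 19.4 RPKM with vehicle, 0.443, 2.58 and 9.65 with insulin, 0.380, 2.05 and 6.76 with glargine, 0.472, 2.53 and 13.1 with X10, and 0.321, 1.31 and 8.40 with IGF1. The groups overlapped again. The highest tumors, Untreated_187 (19.4) and X10_100 (13.1), had Cd3e at only 1.30 and 0.369 RPKM. Gzmb (chromosome 14, 56258838 to 56262260, minus strand) was highest in glargine_78 (12.6 RPKM), Untreated_186 (12.0), Untreated_187 (8.51) and IGF1_145 (8.45). Nkg7 (chromosome 7, 43437073 to 43438249, plus strand) was highest in Untreated_186 (15.9), insulin_8 (11.4), insulin_9 (10.7) and IGF1_158 (10.4), of which 3 were also the highest in Cd3e. Ncr1 (chromosome 7, 4337724 to 4345164, plus strand) had lowest, median and highest values of 0.014, 0.835 and 5.79 RPKM with vehicle, 0.581, 2.34 and 5.58 with insulin, 0.216, 1.19 and 5.75 with glargine, 0.392, 1.49 and 2.79 with X10, and 0.710, 1.53 and 5.41 with IGF1. Vehicle tumors spread the most widely here, from the lowest to the highest value of all 50.

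Pdcd1 (chromosome 1, 94038305 to 94052553, minus strand) had lowest, median and highest values of 0.280, 1.29 and 6.43 RPKM with vehicle, 0.659, 1.32 and 2.52 with insulin, 0.482, 0.752 and 2.75 with glargine, 0.353, 0.755 and 3.73 with X10, and 0.441, 0.856 and 1.67 with IGF1. The highest tumor, Untreated_174, had little Cd3e (0.529 RPKM) and the lowest Ncr1 (0.014). It also had the highest level of the epithelial gene Epcam.

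**Figure D1:**
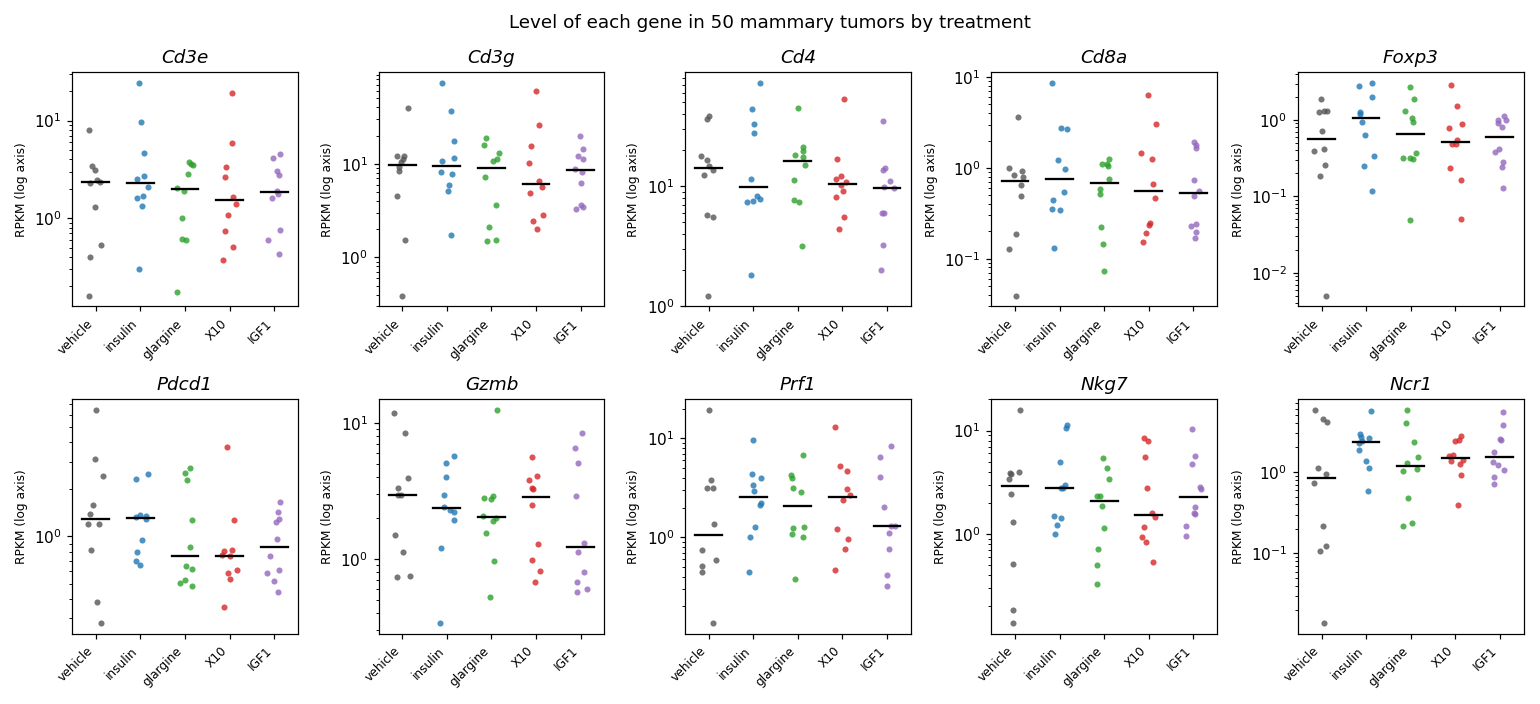
RPKM (log axis) of each of the 10 genes in each tumor, by treatment, with 10 tumors a group and the group median as a black bar. The groups overlap for every gene, and for Cd3e insulin_8 (24.5 RPKM) and X10_105 (19.1) lie above the rest.

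The deposited values do not give the order of these genes' levels directly, because the gene length used as divisor was short for some of them. The divisor recovered from the steps of the values was 412 bases for Cd3g and 946 for Cd4, where all their exons together span 3269 and 4032 bases in the GENCODE annotation. Scaled per kilobase of all exons and per library size, the median level was 2.68 for Cd4, 2.33 for Gzmb, 2.24 for Nkg7, 1.64 for Prf1, 1.33 for Ncr1, 1.08 for Cd3g, 0.905 for Pdcd1, 0.695 for Cd3e, 0.548 for Foxp3 and 0.533 for Cd8a. The ranges of every pair of neighbours in this order overlapped, and Cd4 exceeded Gzmb in 28 of 50 tumors. The median number of reads behind these values was between 74.5 (Pdcd1) and 413 (Cd4) per tumor, and the lowest number was 1 read for Foxp3 (Untreated_161) and Ncr1 (Untreated_174), in libraries of 26.6 to 51.9 M reads. Ratios of RPKM between tumors within a gene do not depend on the divisor, but values in log2(RPKM + 0.5) do, since the fixed 0.5 shrinks genes with low RPKM more. The Cd3e gene overlaps Gm48720 on its own strand and the antisense gene Gm48719, and the Foxp3 gene overlaps Flicr on its own strand and Gm36995, Ccdc22 and Ppp1r3f on the other, so that some of their reads cannot be assigned with certainty.

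The study asked how chronic exposure to insulin analogues and IGF1 changes mammary tumors, and each treatment was compared with the same 10 vehicle tumors. None of the 10 genes passed the threshold of an adjusted p of 0.05 in any comparison (limma on log2(RPKM + 0.5), Benjamini-Hochberg adjustment over all tested genes). With insulin 0 of 10 passed, where 0% of the tested genes did, and with glargine 0 of 10 passed, also against 0%. With X10 it was 0 of 10 against 0.0657% of the tested genes, and with IGF1 0 of 10 against 0.00598%. Among the 20 tumors given X10 or IGF1, set against the 30 others, it was 0 of 10 against 0.155%, and for any difference among the 5 groups 0 of 10 against 0.102%. At an unadjusted p of 0.05 the count was likewise 0 of 10 in each, where 11.1% of the tested genes passed with insulin, 6.23% with glargine, 11.0% with X10, 8.84% with IGF1, 10.5% between the 20 and the 30 tumors and 13.1% among the 5 groups. These p-values measure the spread between tumors, and the fit takes the tumors as independent. The labels number the tumors and do not state that each came from its own mouse.

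The intervals were wide. Cd3e had a log2 difference from vehicle of 0.61 with insulin (95% interval -0.40 to 1.62, adjusted p = 0.679, limma), -0.09 with glargine (-1.10 to 0.92), 0.17 with X10 (-0.84 to 1.18) and 0.03 with IGF1 (-0.98 to 1.04). Prf1 had one of 0.49 with insulin (-0.53 to 1.51), 0.28 with glargine (-0.74 to 1.30), 0.45 with X10 (-0.57 to 1.47) and 0.10 with IGF1 (-0.91 to 1.12). A log2 difference of 1 thus lay within the interval with insulin, X10 and IGF1 for both genes, and with glargine for Prf1. Because of the added 0.5, such a difference is more than a doubling of RPKM. The upper bound of Cd3e with glargine, 0.92, therefore does not by itself exclude a doubling of RPKM. The member nearest to the threshold with insulin was Ncr1, with a log2 difference of 0.78 (standard error 0.40, interval -0.03 to 1.59, adjusted p = 0.464, limma). This difference was 1.32 with a pseudocount of 0.1 and 1.71 with voom on recovered reads, with adjusted p of 0.379 and 0.356 (limma). Over all settings it lay between 0.43 and 1.71, with an adjusted p of up to 0.906 (limma). With X10 the member nearest to the threshold was Pdcd1, with -0.51 (standard error 0.29, interval -1.10 to 0.07, adjusted p = 0.520, limma). Pdcd1 had -0.48 with IGF1 (adjusted p = 0.689, limma) and -0.32 with glargine (adjusted p = 0.881, limma). 
Between the 20 tumors given X10 or IGF1 and the 30 others the intervals were narrower. Cd3e differed by -0.08 on the log2 scale (interval -0.73 to 0.58, adjusted p = 0.973, limma) and Prf1 by 0.02 (interval -0.64 to 0.68, adjusted p = 0.996). Pdcd1 differed by -0.34 (interval -0.72 to 0.04, adjusted p = 0.549). Over all 10 genes the log2 differences lay between -0.41 (Cd4) and 0.16 (Ncr1), with 3 genes higher and 7 lower and a median of -0.04, beside a median of -0.02 over the tested genes. The count and the sign of the median turned with Cd79a as a covariate (6 of 10 higher, median 0.03) and without the 4 tumors of highest Cd3e (6 of 10, median 0.04), and the sign also with quantile normalization (5 of 10, median 0.01).

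**Figure D2:**
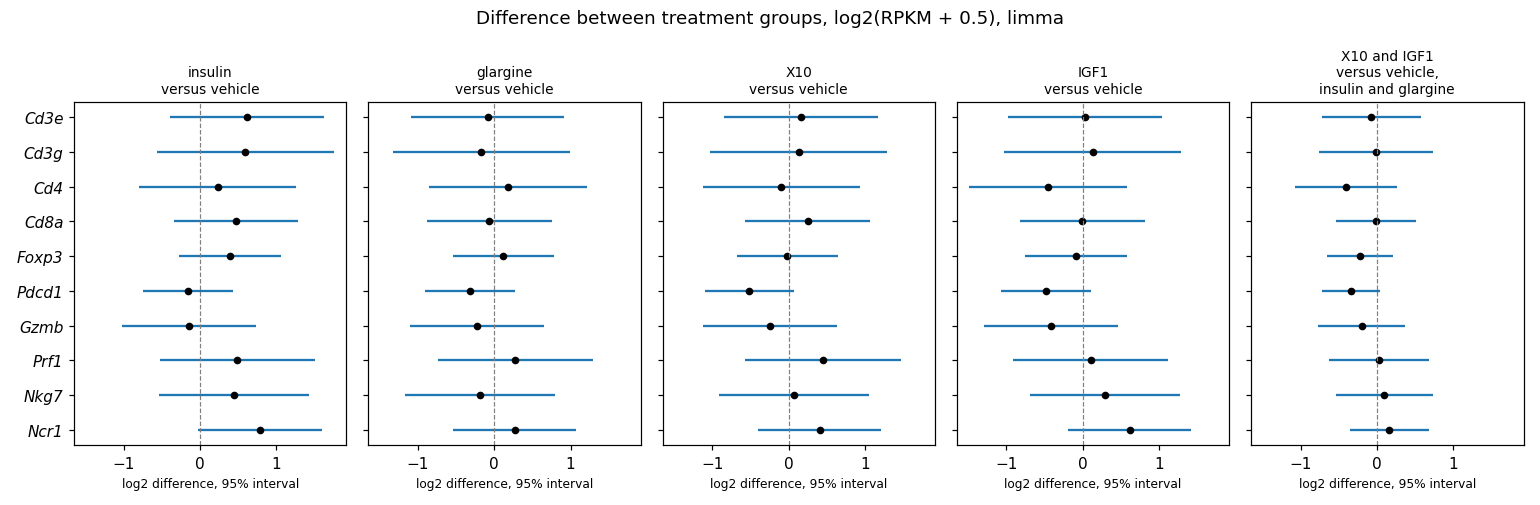
Difference in log2(RPKM + 0.5) between treatment groups for each gene (points) with its 95% interval (lines), from limma over 50 tumors. Every interval includes 0, and with insulin Ncr1 (0.78) lies farthest from it.

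With insulin 8 of the 10 genes were higher than with vehicle, with a median log2 difference of 0.46 beside 0.03 over the tested genes, and none passed the test. With Ptprc, the leukocyte antigen CD45, as a covariate 3 of 10 were higher, with a median of -0.18. Without the 4 tumors of highest Cd3e 7 were higher (median 0.25), and the median was 0.26 with Cd79a as a covariate and 0.81 with voom. The wider list of the T cell receptor complex and its signaling had 16 of its 17 tested genes higher, a median of 0.46, and 0 that passed. The list holds genes that vary closely with Cd3e, such as Lck and Cd6, and is not separate evidence, and its counts were not taken with covariates or without tumors. In it Lck, the kinase that starts T cell receptor signaling, had a log2 difference of 0.68 (adjusted p = 0.638, limma), and Trac, the constant region of the receptor alpha chain, one of 0.56 (adjusted p = 0.720). Genes of other leukocytes were also higher with insulin, again with 0 that passed. An unadjusted p under 0.05 (limma) was reached by 6 of 8 macrophage and 5 of 6 leukocyte genes, and by 11.1% of the tested genes. With IGF1 it was 5 of 8 and 0 of 6, and 8.84% of the tested genes. Genes of 1 cell type can vary together, so such counts are not counts of separate results. Of 6 general leukocyte genes 6 were higher with insulin, with a median of 0.47, and of 8 macrophage genes 8 were higher, with a median of 0.79. The 8 macrophage genes were higher with every treatment, with medians of 0.93 with IGF1, 0.48 with glargine and 0.37 with X10, where the 10 members had medians of 0.01, -0.08 and 0.10. The members' medians moved with the setting, to -0.19, -0.31 and -0.39 with Ptprc as a covariate, to 0.19, 0.13 and 0.08 without the 4 tumors of highest Cd3e, and to 0.19, -0.02 and 0.26 with voom. Ptprc itself had a log2 difference of 0.55 (adjusted p = 0.445, limma). With Ptprc as a covariate, the log2 difference of Cd3e with insulin was -0.10.

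The remaining lists also held 0 genes that passed in any comparison. Among 13 tested helper and regulatory T cell genes, 9 were higher with insulin (median 0.20) and 2 with IGF1 (median -0.30). Of 14 tested effector genes of cytotoxic lymphocytes 11 were higher with insulin and 6 with IGF1, with medians of 0.17 and -0.07. Of 9 tested NK cell genes 8 were higher with insulin (median 0.16), 6 with X10 (0.06), 5 with glargine (0.01) and 3 with IGF1 (-0.09). Among those higher with insulin was Klrb1c, the NK1.1 antigen, with a log2 difference of 0.85 (adjusted p = 0.365, limma). Of 11 tested checkpoint receptors and ligands 2 were higher with glargine and 4 with IGF1, with medians of -0.39 and -0.37. Of 12 lymphocyte chemoattractants and interferon gamma targets 9 or 10 were lower than vehicle with each treatment, with medians from -0.43 with glargine to -0.22 with X10. The vehicle tumors shared by these comparisons included Untreated_186, the highest of the 50 in 6 of these 12 genes, with a summed level of 1063.6 RPKM where the vehicle median was 309.8. For other cells, 9 of 10 tested B cell and lymph node genes were higher with insulin (median 0.45) and 8 with X10, groups in which insulin_8 and X10_105 each were among the 2 highest tumors in 11 of the 12 genes of this list. The median summed level of the list was 10.8 RPKM with X10 and 11.8 with vehicle. Of 7 tested dendritic cell genes 6 were higher with insulin (median 0.42), 6 with glargine (0.33), 5 with X10 (0.22) and 4 with IGF1 (0.04). Of 6 tested mast cell genes 5 were higher with each treatment, with medians of 0.29 with insulin, 0.90 with glargine, 1.00 with X10 and 1.24 with IGF1. Of 6 epithelial genes 6 were lower with insulin (median -0.82) and 6 with IGF1 (median -1.82). With IGF1 4 of them had an unadjusted p under 0.05 (limma), as had 8.84% of the tested genes. The vehicle tumor Untreated_174 was the highest of the 50 in 6 of these 6 genes. Of 5 proliferation genes 4 were lower with insulin (median -0.11). The part of these cells in the members' values was not tested beyond the covariates named here.

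Ratios between members were compared between the same groups by permutation tests. They are ratios of RNA levels, and since Cd4 is not particular to T cells and Pdcd1 was highest in a tumor with little Cd3e, they do not measure the make-up of the lymphocytes. The ratios of Cd8a to Cd4, Foxp3 to Cd3e, Pdcd1 to Cd3e, Prf1 to Cd3e and Gzmb to Prf1 gave 25 tests over the 5 comparisons, and 0 passed after adjustment. The smallest p was that of Gzmb to Prf1 with insulin, with a mean log2 ratio of -0.03 ± 0.57 against 0.60 ± 1.04 with vehicle (SD, n = 10 each, two-sided permutation test with 100000 resamples, p = 0.108, adjusted p = 0.753).

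Across the 50 tumors the genes fell along 2 patterns. Cd3e and Cd3g varied together, with Pearson's r of 0.96 and Spearman's rho of 0.96 (two-sided permutation test, adjusted p = 2.81e-05 for each, the adjusted value of the smallest p that 100000 resamples can give). Cd3e was related likewise to Cd8a (r 0.91, rho 0.87), Foxp3 (r 0.87, rho 0.88) and Nkg7 (r 0.83, rho 0.82), each with the same adjusted p. To Cd4 (r 0.59, rho 0.48) and Pdcd1 (r 0.56, rho 0.58) the relation was looser, with adjusted permutation p of 5.0e-05 and 9.47e-05 for r. Without insulin_8 and X10_105, the tumors farthest from the median of Cd3e, r was 0.96 with Cd3g, 0.87 with Cd8a, 0.85 with Foxp3, 0.82 with Nkg7, 0.47 with Cd4 and 0.46 with Pdcd1.

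Gzmb and Prf1 were related to each other (r 0.73, rho 0.70) and to Ncr1 (r 0.66 and 0.60, rho 0.63 and 0.63), with an adjusted permutation p of 2.81e-05 for each. No relation of either to Cd3e was detectable, and r was 0.05 for Gzmb (adjusted permutation p = 0.779) and -0.14 for Prf1 (adjusted permutation p = 0.411). Foxp3 and Prf1 were inversely related, with r of -0.31 and rho of -0.35 (adjusted permutation p = 0.0408 and 0.0228). Ncr1 stood between the patterns, with r of 0.71 with Nkg7 and 0.44 with Cd3e. In all, 30 of the 45 pairs passed, 29 of them positive. The share that passes among pairs of all tested genes was not determined, here or for the markers and granzymes below. These counts therefore cannot be read as particular to the members. Centred within treatment groups 29 pairs passed, and r was 0.96 for Cd3e and Cd3g, 0.75 for Gzmb and Prf1 and -0.35 for Foxp3 and Prf1. Without the farthest tumors, r was 0.74 for Gzmb and Prf1, 0.60 for Gzmb and Ncr1, 0.62 for Prf1 and Ncr1, and -0.36 for Foxp3 and Prf1. All values of a tumor come from 1 library, so the points of these relations share its depth and tissue make-up.

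**Figure D3:**
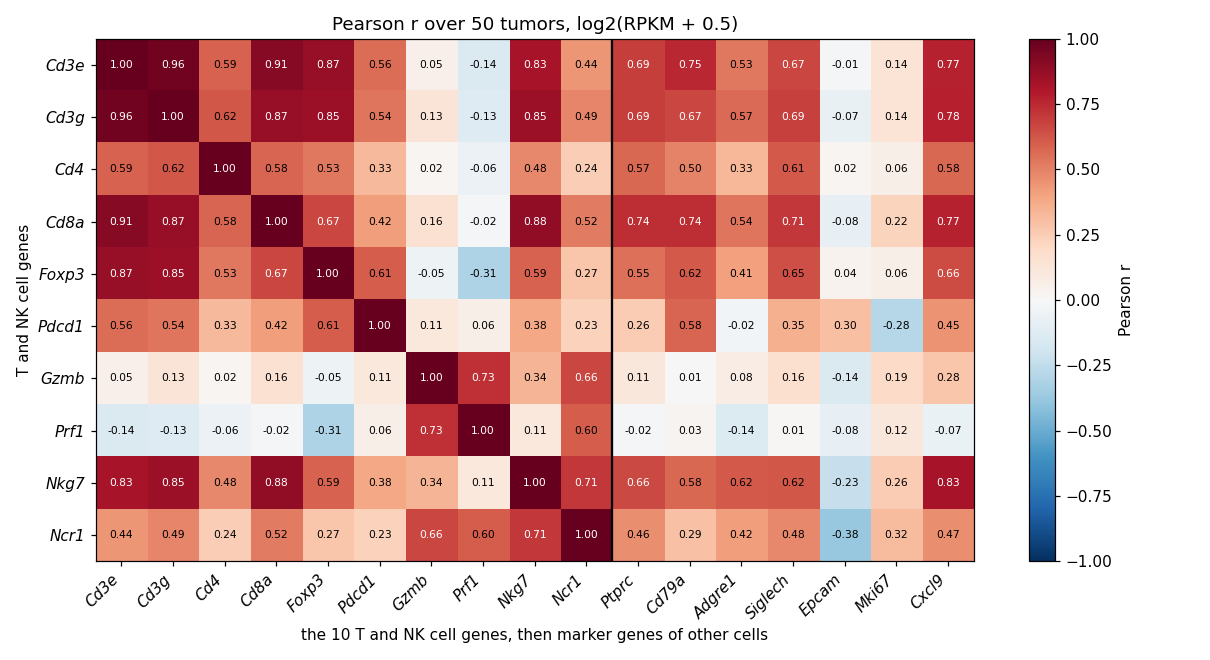
Pearson's r over 50 tumors in log2(RPKM + 0.5) between the 10 genes (left of the line) and with marker genes of other cells (right of it), red for positive and blue for negative. Cd3e, Cd3g, Cd8a, Foxp3 and Nkg7 form a block, and Gzmb and Prf1 (0.73) are near 0 with Cd3e.

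The genes most like each member over the 50 tumors, by Pearson's r among the tested genes, are given as a description. They were Lck (0.98), Gimap3 (0.98) and Cd6 (0.97) for Cd3e, and Gimap3 (0.97), Lck (0.97) and Ptprcap (0.94) for Cd3g. Cd8a was most like Cd8b1 (0.98), which encodes the partner chain of the CD8 coreceptor, and also like Gimap7 (0.93). For Foxp3 they were Ctla4 (0.93), Icos (0.92) and Tnfrsf18 (0.92), receptors found on regulatory T cells. Nkg7 was most like Ctsw (0.92), Cd8b1 (0.90) and Sh2d2a (0.89), and Ncr1 was most like Il2rb (0.85), Klrd1 (0.84) and Eomes (0.82), all genes of NK cells and cytotoxic T cells. Cd4 differed from the other T cell genes here, with Dnase1l3 (0.82), Cd22 (0.81) and Hvcn1 (0.76). Pdcd1 was most like Ltb (0.77), 1600014C10Rik (0.75) and Zfp36 (0.69). Prf1 was most like Fcrl6 (0.90), Ctsg (0.84) and Tmsb15a (0.83), and Gzmb was most like Gzmc (0.73), Tnfsf4 (0.69) and Sh2d1b2 (0.62).

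Markers of other cells were then set beside the members, 7 genes against 10 in 70 pairs, of which 39 passed. Cd79a, a chain of the B cell receptor, was related to Cd3e (r 0.75, rho 0.65, adjusted permutation p = 3.04e-05 for r) and to Cd8a (r 0.74, rho 0.49). Both relations leaned on insulin_8 and X10_105, without which r was 0.63 and 0.55. Cxcl9, a chemokine that draws T cells and is induced by interferon gamma, was related to Nkg7 (r 0.83, rho 0.83) and Cd3e (r 0.77, rho 0.80), with an adjusted permutation p of 3.04e-05 for r. Ptprc was related to Cd3e (r 0.69, rho 0.72), and not detectably to Gzmb (r 0.11, adjusted permutation p = 0.567) or Prf1 (r -0.02, adjusted permutation p = 0.946). The epithelial gene Epcam passed with Ncr1 alone, with r of -0.38 (adjusted permutation p = 0.0144), rho of -0.24 (adjusted permutation p = 0.167), and the call was lost without Untreated_174 and Untreated_186 (r -0.28, adjusted permutation p = 0.0971) and when centred within treatment groups (r -0.33, adjusted permutation p = 0.110).

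The tumors with the highest T cell genes differed in what came with them. insulin_8 and X10_105 had 49.3 and 84.5 RPKM of Cd79a, 17.9 and 28.9 of Ms4a1 and 16.5 and 16.8 of Fcer2a, all genes of B cells. In insulin_9 Cd79a was at 2.55 RPKM and Ms4a1 at 0.788, and in Untreated_186 they were at 6.82 and 1.25. These values were lower, yet also above the medians of the 50 tumors, 0.26 for Cd79a and 0.078 for Ms4a1. The chemokine Ccl21a, made by the stroma and lymph vessels of lymph nodes, was at 128.6 and 123.1 RPKM in insulin_8 and X10_105, at 0 in insulin_9 and at 38.0 in Untreated_186. The summed level of the 12 B cell and lymph node genes was 232.1 RPKM in insulin_8, 368.2 in X10_105 and 79.1 in Untreated_186. Its median over the 50 tumors was 11.1. Mammary glands hold lymph nodes, and the part of such tissue in the T cell values of these tumors was not tested. insulin_9 and Untreated_186 instead had the highest Cxcl9, with 64.9 and 67.4 RPKM, against 7.46 in insulin_8 and 17.6 in X10_105.

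**Figure D4:**
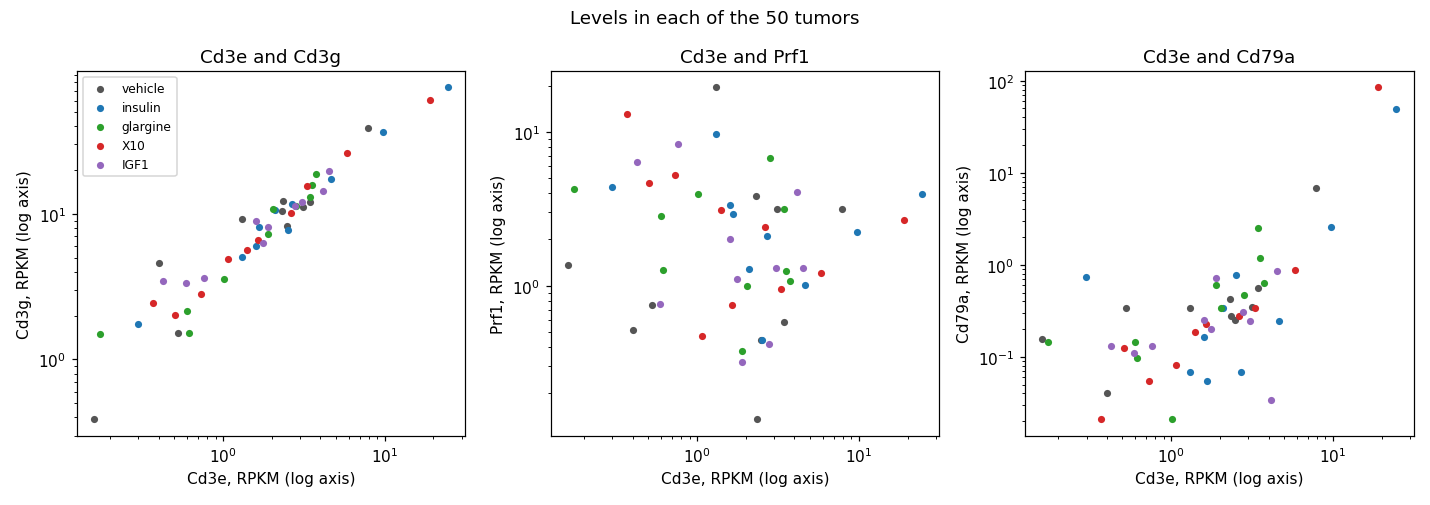
RPKM in each of the 50 tumors, both axes on a log scale, of Cd3e against Cd3g, Prf1 and Cd79a, coloured by treatment. Cd3e and Cd3g lie on a line (r 0.96), Cd3e and Prf1 do not (r -0.14), and the highest Cd79a values are those of X10_105 (84.5 RPKM) and insulin_8 (49.3).

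The tumors high in Prf1 were compared with other granzymes, a comparison chosen after the values were seen. Gzmc, Gzmd, Gzme, Gzmf and Gzmg lie beside Gzmb in a cluster of protease genes, and their reads can be shared between near-identical copies. Untreated_187 had 184.5 RPKM of Gzmf, 116.5 of Gzmg and 103.8 of Gzmd, and X10_100 had 130.3, 82.1 and 63.5. In insulin_8 these genes were at 0.640, 0.385 and 6.08 RPKM. Gzme followed Prf1 less closely (r 0.48, rho 0.45, adjusted permutation p = 0.00137 and 0.00313, r 0.42 without X10_100 and Untreated_187) and was highest, at 203.0 RPKM, in Untreated_174, where Prf1 was below its median. Over 35 pairs of member and granzyme or Cpa3, a mast cell protease, 22 passed. Prf1 was related to Gzmf (r 0.81, rho 0.80, adjusted permutation p = 5.83e-05) and Gzmb to Gzmc (r 0.73, rho 0.75, same adjusted p), and r without the farthest tumors was 0.78 and 0.72. Cd3e was inversely related to Gzmg (r -0.57, rho -0.59, adjusted permutation p = 0.000175 and 8.75e-05, r -0.55 without insulin_8 and X10_105). Cpa3 was not detectably related to Prf1 (r 0.14, adjusted permutation p = 0.430) or Gzmb (r -0.02, adjusted permutation p = 0.944). Gzma and Gzmk, granzymes of NK cells and T cells, had means of only 0.52 and 0.099 RPKM.

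Promoters of members with a shared pattern were read for the core site of Runx factors (TGTGGT), which act in cytotoxic lymphocytes, and that of ETS factors (AGGAAG), on both strands. RefSeq promoters of GRCm38.p6, from 250 bases before to 50 after the start, were found for 9 of the 10 genes. The sequences of Cd3e (chr9:45009562-45009861, minus strand), Cd8a (chr6:71373177-71373476, plus), Gzmb (chr14:56262285-56262584, minus), Prf1 (chr10:61297586-61297885, plus) and Ncr1 (chr7:4337465-4337764, plus) are shown 5′ to 3′, with matches to either site in capitals. They are examples of the 2 patterns, except for Ncr1, which stood between them.
Cd3e: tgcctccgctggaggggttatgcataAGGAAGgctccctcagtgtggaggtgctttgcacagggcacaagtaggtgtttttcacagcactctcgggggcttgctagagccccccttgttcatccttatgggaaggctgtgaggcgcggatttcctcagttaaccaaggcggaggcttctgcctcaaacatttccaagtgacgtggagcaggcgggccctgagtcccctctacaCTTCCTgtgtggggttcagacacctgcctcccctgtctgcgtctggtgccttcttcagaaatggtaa
Cd8a: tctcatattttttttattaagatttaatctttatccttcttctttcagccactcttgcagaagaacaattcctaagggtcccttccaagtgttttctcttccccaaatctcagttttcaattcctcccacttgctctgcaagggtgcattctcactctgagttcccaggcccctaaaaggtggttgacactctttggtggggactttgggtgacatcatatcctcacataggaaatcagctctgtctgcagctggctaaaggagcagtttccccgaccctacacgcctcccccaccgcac
Gzmb: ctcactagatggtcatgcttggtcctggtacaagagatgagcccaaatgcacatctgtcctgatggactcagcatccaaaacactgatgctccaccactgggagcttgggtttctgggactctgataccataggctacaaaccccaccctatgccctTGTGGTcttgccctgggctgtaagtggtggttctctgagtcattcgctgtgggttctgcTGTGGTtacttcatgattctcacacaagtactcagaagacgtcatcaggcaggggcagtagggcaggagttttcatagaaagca
Prf1: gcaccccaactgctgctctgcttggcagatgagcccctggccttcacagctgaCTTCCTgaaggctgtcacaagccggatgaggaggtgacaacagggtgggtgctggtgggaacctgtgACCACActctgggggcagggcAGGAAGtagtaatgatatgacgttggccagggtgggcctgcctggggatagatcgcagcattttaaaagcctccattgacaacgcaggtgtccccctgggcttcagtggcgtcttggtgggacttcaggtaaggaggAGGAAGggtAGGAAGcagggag
Ncr1: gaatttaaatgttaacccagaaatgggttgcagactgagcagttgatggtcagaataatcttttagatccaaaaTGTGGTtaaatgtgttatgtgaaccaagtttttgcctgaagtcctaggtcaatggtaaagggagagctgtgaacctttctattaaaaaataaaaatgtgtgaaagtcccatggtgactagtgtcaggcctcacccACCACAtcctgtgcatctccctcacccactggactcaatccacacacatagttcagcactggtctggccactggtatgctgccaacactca
The Runx letters were found 2 times in Gzmb, 2 times in Ncr1, 1 time in Prf1 and 1 time in Nkg7, and in none of the windows of Cd3e, Cd3g, Cd8a, Foxp3 and Pdcd1. Of 32851 promoters of the same length 16.8% held them. The ETS letters were found 4 times in Prf1, 2 times in Cd3e, 2 times in Pdcd1, 1 time in Nkg7 and 1 time in one of the windows of Foxp3, and 35.4% of all promoters held them. A match is a description of the sequence and was not tested for binding.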

How the data were processed

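Poly-A RNA of 50 tumors was sequenced on the Ion Proton. The authors aligned reads to GRCm38 with TopHat2 2.0.10, and the rest with Bowtie2, and used HTSeq 0.6.1 for counting. The deposited RPKM values are, per the study's methods, read counts scaled by library size and gene length in DEXSeq. Read steps in the values gave each gene's divisor, reads and library size (26.6 to 51.9 M reads, median 40.9 M), which bounds precision. Low values are understated as fold changes by the pseudocount.

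Genes with a mean of at least 0.5 RPKM (16733 of 37701) were tested on log2(RPKM + 0.5) with limma 3.58.1 in R 4.3.3, all 5 groups in the fit, an intensity trend and Benjamini-Hochberg adjustment, since RPKM values are not the counts that the authors' DESeq2 analysis used. The scripts were tested on simulated data. Relations used 100000 permutations, adjusted within each family. Alternatives were other pseudocounts (0.1 and 1), filters, normalizations, covariates, moderation, voom on recovered reads and left-out tumors. Of the low values used for this, at least 98.1% in each tumor equalled a whole number of reads after rounding, where the rounding alone admits between 26.3% and 51.7% of whole numbers. On these reads voom called 10 genes with X10 and 1 with IGF1, and 0 with insulin and with glargine. The rule for named genes took the 10 members, from each list the genes with the highest means and smallest p, and the 3 genes most like each member. Other genes, Trac, Ptprc and Tigit among them, and all single tumors were named after their values were seen. Some genes that the rule or lists take are not reported here. No column of per-sample values was left unused. The members and lists were chosen with earlier results of these data known. Coordinates are from GENCODE, promoters from RefSeq. Python 3.11.15, numpy 2.4.6, scipy 1.17.1, pandas 2.3.3 and matplotlib 3.10.9 were used.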

Additional observations from a re-analysis of the deposited data

Results flagged for a closer look

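In each treatment group of 10 tumors, the gap between the highest or lowest tumor and the next was compared with the group's whole range, over 75 sets of values (the 10 genes and 5 log2 ratios in 5 groups). In 24 of them the gap was larger than Dixon's 95% critical value, which chance exceeds in about 1 in 20 groups of normally distributed values. The genes were compared in RPKM, a skewed scale on which that rate does not hold. In log2(RPKM + 0.5), a scale added after seeing the data, 4 of the 50 sets of gene values were past it in place of 22: Cd4 and Pdcd1 in X10_105, Cd8a in Untreated_186 and Gzmb in glargine_78.

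X10_105 stood apart within its group in 6 genes, with Cd3e at 19.1 RPKM (next 5.84), Cd3g at 60.5, Cd4 at 53.4, Cd8a at 6.38, Foxp3 at 2.85 and Pdcd1 at 3.73. insulin_8 stood apart in Cd3e at 24.5 RPKM (next 9.72), Cd3g at 74.0 and Cd8a at 8.70, and its log2 ratio of Foxp3 to Cd3e, -2.92, was the lowest of the insulin group. Untreated_186 stood apart in Cd3e at 7.92 RPKM (next 3.44), Cd3g at 39.1, Cd8a at 3.59 and Nkg7 at 15.9.

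Other tumors stood apart in 1 or 2 measures. Prf1 was at 19.4 RPKM in Untreated_187 (next 3.81), at 13.1 in X10_100 (next 5.23) and at 9.65 in insulin_14 (next 4.41). Gzmb was at 12.6 RPKM in glargine_78, where the next glargine tumor had 2.91. Cd4 was at 45.1 RPKM in glargine_69 and at 35.0 in IGF1_143. Nkg7 was at 10.4 RPKM in IGF1_158, and Ncr1 at 5.58 in insulin_9. Pdcd1 was at 6.43 RPKM in Untreated_174, and the log2 ratio of Pdcd1 to Cd3e in this tumor, 2.75, was the highest of the vehicle group.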

How the results depend on the processing

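No member passed in any comparison fitted under the 15 other settings, of which the filter at a mean of 1 RPKM left 9 members (without Foxp3) and the fits on only the groups compared gave no test over the 5 groups, and the smallest adjusted p of a member over all of them was 0.338 (Pdcd1, X10 against vehicle, with Cd79a as a covariate). At most 1 member reached an unadjusted p of 0.05 in a comparison, namely Ncr1 or Pdcd1. Of the 50 log2 differences 22 kept their sign in every setting. Of those printed, that of Cd3e turned with Ptprc as a covariate with insulin (-0.10), X10 (-0.44) and IGF1 (-0.19), and with IGF1 also with the epithelial score (-0.0090) and a pseudocount of 1 (-0.0015). It turned with glargine without the 4 tumors of highest Cd3e (0.12) and with library size as a covariate (0.0023), and between tumors given X10 or IGF1 and the rest with Cd79a as a covariate (0.047) and without those 4 tumors (0.016). That of Prf1 in the last comparison turned with library size (-0.0027). The cause was not tested. Leaving out those 4 tumors, chosen on Cd3e itself, and the Cd79a covariate were added after seeing the data. Counts of related pairs stayed within 1.5 times, at 26 to 30 of 45 between members, 37 to 39 of 70 with markers and 20 to 23 of 35 with granzymes and Cpa3. The number of all tested genes that passed moved more, from 26 to between 10 and 80 for X10 or IGF1 against the rest and from 11 to between 1 and 24 with X10. For any difference among the 5 groups it went from 17 to 0 (library size as a covariate, or all genes with a nonzero value), 3 (voom) and 6 (quantile normalization), and with insulin from 0 to at most 3. No paired analysis was possible because the groups share no replicate numbers.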

Other observations

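Tigit, an inhibitory receptor of T cells and NK cells, had its highest value, 23.3 RPKM, in Untreated_161, the tumor with the lowest Cd3e, where the mean of Tigit over the tumors was 2.26 RPKM. Gata3, a transcription factor of helper T cells and of luminal epithelium, was highest in Untreated_187, at 155.8 RPKM with a mean of 46.8.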
